A study of Mus musculus with 2 samples.

Results

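The replication-dependent histone genes are the gene copies, clustered in the genome, that supply core and linker histones to dividing cells. They were taken here as the rows whose symbol names a clustered H1, H2A, H2B, H3 or H4 gene and whose counts in both libraries together came to 20 or more. Of 66 such symbols, 55 met that minimum, among 16408 rows of the whole table that met it. The genes were thus selected on their summed counts, so that they were counted at all is not a result. MC3T3-E1 cells, an osteoblast-like line from mouse calvaria grown in 10% serum, were seeded at 25000 cells per cm2 and treated 24 h later. The untreated library came from cells without the hormone, and the PTH library from cells given 10 nM parathyroid hormone (PTH), a peptide that acts on osteoblasts through a receptor coupled to cyclic AMP, both labelled 1 h. Each group held 1 library, made from what the labels call total RNA, with no word on whether tailed RNA was selected or ribosomal RNA removed. So the differences below rest on a single library a side and carry no p-value.

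Core histones H2A, H2B, H3 and H4 form the nucleosome around which DNA winds, and linker histone H1 binds the DNA that enters and leaves it. Genes of the replication-dependent kind are transcribed mainly in S phase, and their main transcripts lack introns and a poly(A) tail and end instead just after a conserved stem-loop. That stem-loop is bound by the protein SLBP, which takes part in 3' end formation, translation and decay of the message. Many copies of a class encode the same or nearly the same protein, so reads can be hard to assign to 1 copy.

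Fewer histone reads were found in the PTH library. Summed over the 55 genes, 3898 counts stood untreated and 3043 after PTH, or 58.0 and 44.0 CPM, the usual counts scaled to library size. The ratio of scaled sums, PTH over untreated, was 0.758. Its 95% exact interval, 0.723 to 0.795, covers counting error only, and every interval in brackets below is of that kind. The drop was not shared evenly. H1 genes stood at a summed ratio of 0.536 (0.478 to 0.601) and H3 genes at 0.569 (0.508 to 0.636), against 0.777 (0.703 to 0.858) for H2B, 0.847 (0.758 to 0.946) for H4 and 1.19 (1.07 to 1.33) for H2A. A row was called when its whole interval lay beyond 1.5-fold. By this rule 15 of the 55 genes (27.3%) were called lower and 1 (1.82%) higher, while 3.54% of all 16408 rows were called lower and 5.39% higher. Among the 6919 rows with a total count no larger than that of the highest histone gene, 6.26% were called lower and 8.30% higher. The median log2 ratio was -0.61 over the histone genes and 0.00 over all rows.

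Most single genes nevertheless stayed within the scatter of other rows. In bins of like total count, 43 of the 55 genes lay below the median of all rows in their bin. Of the 55, 6 lay below the limit under which 2.5% of those rows fell, and 1 above the opposite limit. With wider intervals, which add a coefficient of variation of 0.2 per library as an assumption, 9 genes remained called lower. Over all rows, 1.63% were called lower and 2.89% higher in that way. With a limit of 2-fold, 7 histone genes were lower and 1 higher, against 1.6% and 3.15% of all rows. With a limit nearer to 1 than 1.5-fold, 5/4, 20 of the 55 histone genes were lower and 4 higher, against 7.39% and 9.11% of all rows. Intervals wholly below 1 were found for 28 histone genes and wholly above 1 for 5, against 29.2% and 29.4% of all rows.

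**Figure D1:**
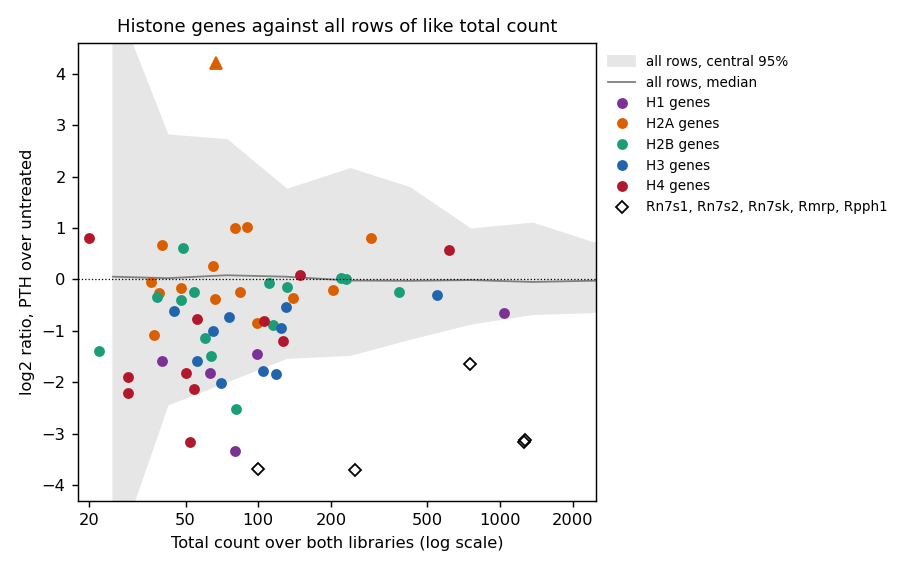
log2 ratio (PTH over untreated) against total count over both libraries, with 1 point per histone gene, coloured by class, and open diamonds for 5 RNAs without a poly(A) tail. The grey band holds the central 95% of all rows of like count, joined between count bins, and the triangle is H2ac18, listed at 0 untreated and drawn below its value. Of 55 histone genes, 43 lie below the median of their bin and 6 below its lower limit.

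Total counts were 66302211 untreated and 70036872 after PTH. Histone genes took 0.00588% and 0.00434% of them, and 36 of the 55 had fewer than 100 counts in total, so single ratios were imprecise. All 10 osteoblast markers examined were counted, led by Col1a1, and 1 of them, the transcription factor gene Sp7, was called lower at a ratio of 0.418. Of the markers of other cell types, 2 of 6 adipocyte, 2 of 6 chondrocyte, 2 of 6 skeletal muscle, 1 of 5 endothelial and 3 of 7 macrophage and osteoclast markers reached 20 counts. Those that did were Des and Mylpf for muscle, and Ctsk, Csf1r and Cd68 for macrophages and osteoclasts. Myod1 and Myog of the muscle list and Ptprc of the macrophage and osteoclast list did not. Summed levels of the markers that reached 20 counts were at most 1.22 CPM for adipocyte, muscle and endothelial markers. They were 460 and 714 CPM for the chondrocyte markers Col2a1 and Sox9. For the macrophage and osteoclast markers they were 87.0 and 96.4 CPM, most of it Ctsk. Sox9 was called higher, at a ratio of 3.27, and its part in the histone result was not tested.

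RNAs of types that lack a poly(A) tail went both ways. Of 89 such rows compared, 5 (5.62%) were called higher and 6 (6.74%) lower. Over all rows the shares were 5.39% and 3.54%. Among rows with total counts in the range of the histone genes they were 8.3% and 6.26%. Ratios of the 89 lay above 1 in 63 rows and below in 26, and the median log2 ratio was 0.41. The 5 named ones that reached 20 counts were all lower. Rn7sk, the RNA of the 7SK particle that holds back transcription elongation, had 569 counts untreated and 187 after PTH, a ratio of 0.319 (0.269 to 0.377). Rn7s1 and Rn7s2, which encode the signal recognition particle RNA and overlap each other in the annotation, went from 1133 to 134 and from 1134 to 131 counts. Rmrp and Rpph1, the RNAs of RNase MRP and RNase P, went from 234 to 18 and from 93 to 7, and both share most of their exonic length with another row. The summed ratio of the 5 was 0.146 (0.133 to 0.161), an interval that is too narrow if reads of Rn7s1 were also counted for Rn7s2. In contrast, 71 small nucleolar RNA rows, which are mostly cut from introns, had a summed ratio of 1.41 (1.34 to 1.497), with 3 called higher and 0 lower. The 8 small nuclear RNA rows, most with few counts, summed to 1.34 (1.03 to 1.74), with 2 called higher and 1 lower. The 5 small Cajal body RNA rows went the other way, from 93 to 65 counts, a ratio of 0.679 (0.487 to 0.942). Of those 5, 4 had ratios below 1 and 0 were called. The part of these shifts in the histone result was not tested.

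Each histone message of the main kind carries the same short element near its end, and the letters of some members are shown because this element marks the gene family and its form differs between classes. They come from GENCODE transcript models (M21, on GRCm38, which is mm10), read 5′ to 3′ as DNA. Capitals mark the 16-letter stem-loop and lower case the 5 bases on either side.
H1f2: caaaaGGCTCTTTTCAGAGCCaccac
H1f3: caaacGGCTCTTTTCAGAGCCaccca
H2ac11: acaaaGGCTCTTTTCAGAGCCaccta
H2ac20: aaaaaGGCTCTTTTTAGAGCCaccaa
H2bc12: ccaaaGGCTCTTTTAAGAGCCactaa
H3c3: aaaaaGGCTCTTTTAAGAGCCaccta
H4c1: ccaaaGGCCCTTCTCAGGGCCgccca
H4c2: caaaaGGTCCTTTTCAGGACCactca
H4c9: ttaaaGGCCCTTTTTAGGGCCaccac
A histone stem-loop was found in the models of 39 of the 55 genes, and in 0.237% of 21901 protein-coding genes searched on the sense strand. The form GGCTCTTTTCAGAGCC was shared by 22 members, of H1, H2A, H2B and H3. H4 genes had other stems, 6 of them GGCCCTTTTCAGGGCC. The 22 genes with the commonest form had a summed ratio of 0.737 (0.686 to 0.792), and the 6 H4 genes 0.480 (0.385 to 0.595). A further H4 form, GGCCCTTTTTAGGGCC, was in H4c9 and H4c14, which summed to 1.38 (1.17 to 1.62), most of it H4c9. All 39 genes with a stem-loop in the model summed to 0.784 (0.742 to 0.828), and the 16 without to 0.678 (0.612 to 0.749). Models of the other 16 genes held no match, which says only that these letters are not in the annotated transcript.

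All 5 H1 genes had fewer reads after PTH, and a median of 2.25% of their 50-base stretches occurred in transcripts of another gene, the least of any class. H1f2, the linker histone gene with the most counts, had 627 counts untreated and 412 after PTH, a ratio of 0.638 (0.562 to 0.724), and was not called. H1f5 went from 72 to 27 counts, 2.75-fold lower (1.74 to 4.45). H1f4 went from 49 to 14 counts, 3.60-fold lower (1.958 to 7.07), and 25.7% of its exonic length is shared with other rows on its strand. One of these rows is the H2B member H2bc6, which had 19 counts untreated and 30 after PTH. The lowest was H1f3, at 73 and 7 counts, 10.7-fold lower (4.96 to 27.6). H1f1, the remaining gene, had 30 and 10 counts and was not called, at a ratio of 0.324 (0.141 to 0.680). Without H1f2 the other 4 genes summed to 224 and 58 counts, a ratio of 0.251 (0.185 to 0.337). So the class ratio depended strongly on its most abundant gene, which stood nearest to 1.

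**Figure D2:**
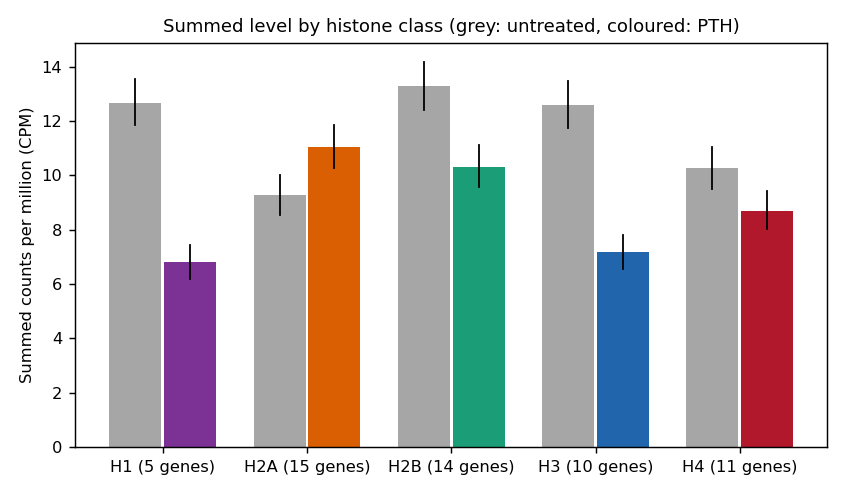
Summed level of each histone class in CPM, grey for the untreated and coloured for the PTH library, with 95% exact Poisson intervals that cover counting error only. H1 and H3 show the widest gaps, with H1 at 12.7 and 6.80 CPM, and H2A alone is higher after PTH, at 9.26 and 11.05 CPM.

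H3 genes, which encode the core histone whose tail carries many regulatory marks, had ratios below 1 in 10 of 10 members, and 4 were called lower. H3c4 had 56 counts untreated and 14 after PTH, 4.12-fold lower (2.26 to 8.01). H3c10 had 92 and 26 counts, 3.64-fold lower (2.34 to 5.87), and H3c2 had 81 and 24, 3.48-fold lower (2.18 to 5.73). The fourth, H3c7, had 42 and 14 counts, 3.09-fold lower (1.65 to 6.12). H3c3, the member with the most counts, was little lower, at 300 and 251 counts and a ratio of 0.812 (0.684 to 0.964). H3c11 and H3c1 were at 0.690 (0.478 to 0.991) and 0.516 (0.348 to 0.755). Without H3c3 the class ratio was 0.435 (0.372 to 0.507). As in H1, the gene with the most counts had the ratio nearest to 1.

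H4 genes, which encode the partner of H3 in the nucleosome core, were divided. Called lower were 6 of 11 members, and 3 had ratios above 1. H4c9, the H4 gene with the most counts, stood at 245 untreated and 374 after PTH, a ratio of 1.48 (1.26 to 1.75), and H4c2 at 71 and 78, a ratio of 1.07 (0.764 to 1.49). H4c6, at 7 and 13 counts, just met the minimum of 20 and its ratio of 1.80 (0.669 to 5.34) was undetermined. Just below the minimum stood H2bc13, an H2B gene with 5 and 12 counts. In the other direction, H4c4 went from 87 to 39 counts, 2.30-fold lower (1.56 to 3.44), H4c8 from 39 to 11, 3.65-fold lower (1.83 to 7.90), and H4c12 from 44 to 10, 4.53-fold lower (2.25 to 10.1). H4c1, H4c14 and Hist1h4m, singled out after their values were seen because they too were called, had only 5, 6 and 5 counts after PTH, against 47, 23 and 24 untreated. Without H4c9 the class ratio was 0.496 (0.421 to 0.584) in place of 0.847. That single gene therefore held up the sum of the class.

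H2A genes were mixed. Of 15 members, 0 were called lower and 1 higher, 9 ratios lay below 1 and 6 above, and the median log2 ratio was -0.16. Among the 15, H2ac14 is annotated as an unprocessed pseudogene, with 93.1% of its 50-base stretches found in another gene. H2ac11, the member with the most counts, had 104 untreated and 188 after PTH, a ratio of 1.76 (1.37 to 2.25). H2ac12 was at 29 and 61 counts, a ratio of 2.04 (1.29 to 3.30), and H2ac13 at 26 and 54, a ratio of 2.02 (1.24 to 3.36). None of these 3 was called, although each interval lay above 1. H2ac8 and Hist1h2ap, at 108 and 96 and at 77 and 62 counts, did not differ beyond counting error. H2ac7, the lowest, was at 25 and 12 counts, a ratio of 0.466 (0.213 to 0.963). H2ac4, at 63 and 36 counts and 0.555 (0.358 to 0.849), also had its interval below 1. Sequence was shared most in this class, with a median of 85.8% of 50-base stretches found in another gene. The 2 members under 50%, H2ac8 and H2ac6, had a summed ratio of 0.879 (0.676 to 1.14). The class ratio above 1 thus came from the other 13, each with 50% or more of its stretches in another gene. All 15 H2A genes also overlap another row on the opposite strand, by 5.56% or more of their exonic length. Apart from rows that overlap H2ac18, these overlapping rows were listed at 0 in both libraries. Whether strand was read in counting is not given.

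The H2A gene called higher, H2ac18, had 0 counts untreated but 67 after PTH, and 100% of its 50-base stretches occur elsewhere. Gm20634, a noncoding row that covers 90.3% of its exonic length on the same strand, went the other way, from 267 to 68 counts. Together the 2 rows had 267 counts untreated and 135 after PTH, a ratio of 0.491 (0.396 to 0.606), the opposite direction to H2ac18 alone. Gm20634 has 2956 exonic bases and H2ac18 586, so most of Gm20634 lies outside H2ac18. A further row that overlaps H2ac18, Gm20633, had 69 counts untreated and 104 after PTH and is not in that sum. No fold is given for H2ac18. Without it the H2A ratio was 1.09 (0.975 to 1.21), and without H2ac11 it was 1.08 (0.957 to 1.22), so leaving out either gene brought the interval to include 1.

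H2B genes lay between, with 2 of 14 called lower and 0 higher. H2bc4, the member with the most counts, had 204 and 177, a ratio of 0.843 (0.685 to 1.04). H2bc12 and H2bc11 were almost equal in the 2 libraries, at 113 and 117 and at 107 and 113 counts. H2bc15 had 69 counts untreated and 12 after PTH, 5.92-fold lower (3.18 to 12.0), and Hist1h2bq 47 and 17, 2.85-fold lower (1.60 to 5.29). The highest ratio was that of H2bc6, 1.53 (0.835 to 2.88), from 19 and 30 counts. H2bc6 shares 11.2% of its exonic length with other rows on its strand, H1f4 among them. H2bc15 and Hist1h2bq share 86.4% and 97.3% of their 50-base stretches with other genes.

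**Figure D3:**
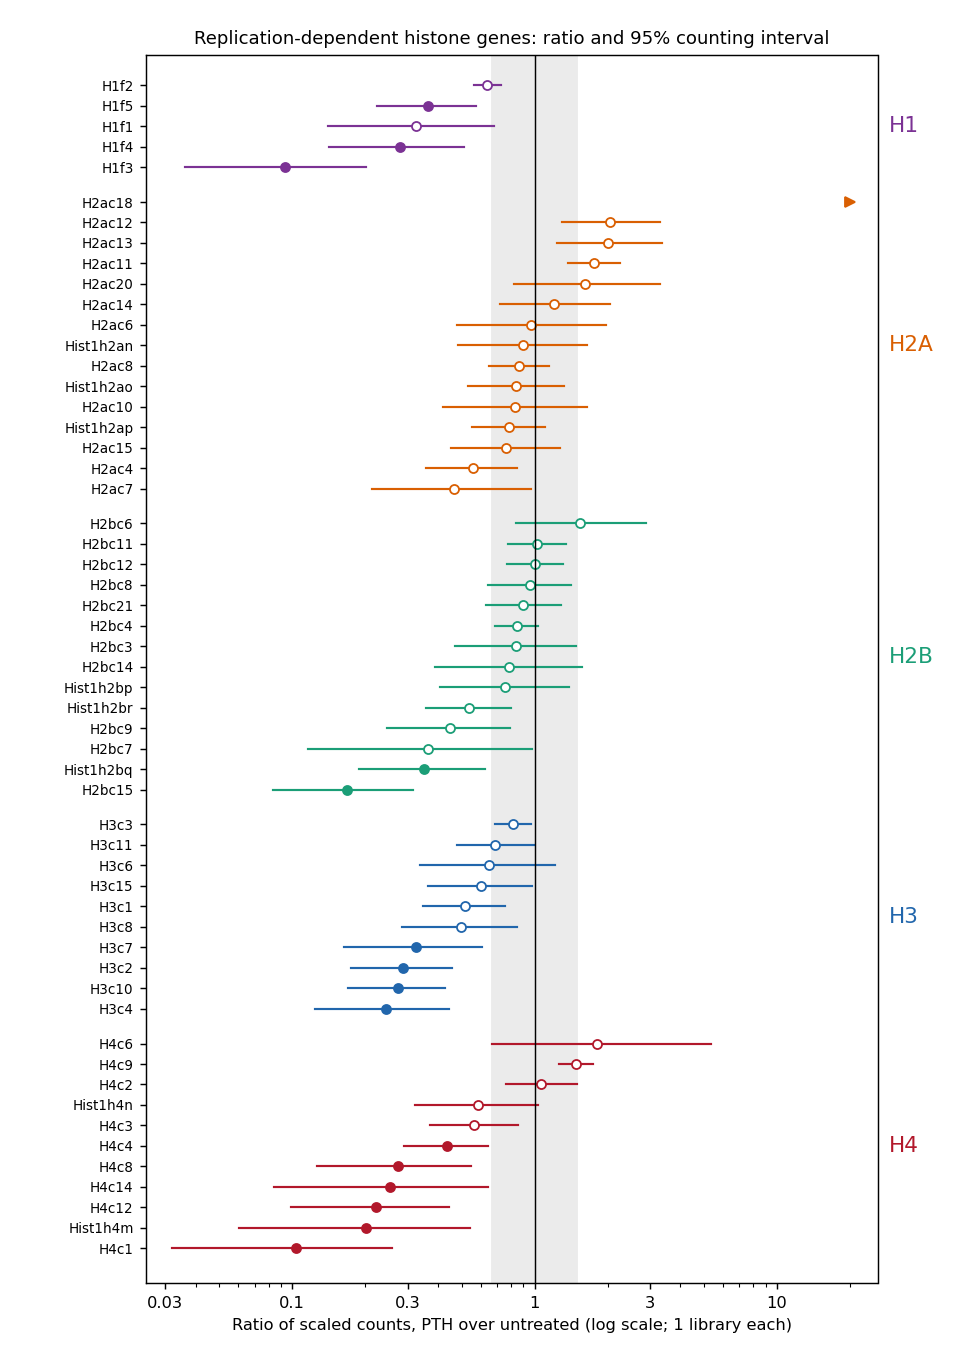
Ratio of scaled counts, PTH over untreated, for each of the 55 genes by class on a log axis, with 95% counting intervals; filled points were called, the grey zone spans 1.5-fold either way, and the arrow is H2ac18, listed at 0 untreated. All H1 and H3 points lie left of 1, while H2A points lie on both sides.

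Many H2A and H2B genes stand back to back and share the stretch between their starts as a common promoter. In the annotation 11 such pairs had both genes among the members, with 175 to 301 bases between them. In 10 of 11 pairs the H2A gene had the higher ratio. Over all 11 pairs the median quotient of the H2A over the H2B ratio was 1.53. That value is the quotient of H2ac14 and H2bc14, and H2ac14 is annotated as an unprocessed pseudogene. The intervals of the 2 genes did not overlap in 2 pairs. In the first, H2ac15 had a ratio of 0.761 (0.451 to 1.27) beside 0.169 (0.0833 to 0.314) for H2bc15. In the second, H2ac11 had 1.76 (1.37 to 2.25) beside 1.03 (0.780 to 1.35) for H2bc11. The exception was H2ac8, at 0.863, beside H2bc8, at 0.954, within counting error. Summed over the pairs, the H2A genes had 512 and 589 counts, a ratio of 1.12 (0.991 to 1.26), and the H2B genes 802 and 639, a ratio of 0.774 (0.696 to 0.860). In the other 9 pairs the intervals overlapped. Members of a pair share sequence with other copies to different degrees, and the part of read assignment was not tested. In these pairs every H2A gene also overlaps rows on the opposite strand, all listed at 0 in both libraries. The part of that overlap was not tested either.

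**Figure D4:**
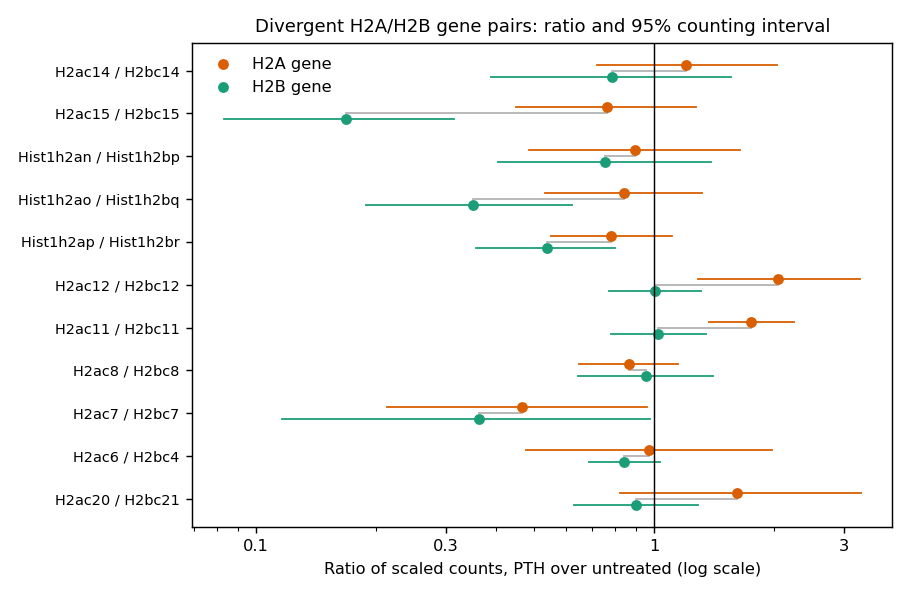
Ratio of scaled counts (PTH over untreated, log axis) of the H2A gene and the H2B gene in each of 11 back-to-back pairs, with 95% counting intervals. The H2A point lies to the right in 10 pairs, and the intervals are apart for H2ac15 with H2bc15 and for H2ac11 with H2bc11.

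Values also differed by position in the genome. On chromosome 13, where 50 of the 55 genes lie, gaps of over 100000 bases left 3 blocks, and 5 genes lay on chromosome 3 (GRCm38, coordinates from GENCODE). The middle block, chr13:22035164-22043676, held 5 members within 8.51 kb, H2ac12, H2bc12, H4c9, H2ac11 and H2bc11. H2ac12, H4c9 and H2ac11 had intervals above 1, while H2bc12 and H2bc11 were close to 1, on either side of it by scaling (H2bc12 at 0.980 and H2bc11 at 0.9998 with total counts, and H2bc12 at 0.987 with upper-quartile factors). Summed counts of the block were 598 untreated and 853 after PTH, a ratio of 1.39 (1.246 to 1.54). The first block, chr13:21716422-21837530, with 17 members, had a ratio of 0.585 (0.522 to 0.655), and the last, chr13:23531050-23764406, with 28 members, 0.628 (0.589 to 0.671). Within H4, the single gene of the middle block stood at 1.48 and the other 10 at 0.496. Within H2B, the 2 genes of that block summed to 1.02 (0.840 to 1.23) and the other 12 to 0.699 (0.621 to 0.787). Within H2A, the 2 genes of the block summed to 1.82 (1.47 to 2.26) and the 13 outside it, H2ac18 among them, to 1.02 (0.902 to 1.16). Outside the block the 50 other genes had a summed ratio of 0.644 (0.610 to 0.680). The chromosome 3 genes summed to 1.21 (0.970 to 1.502) with H2ac18 and to 0.781 (0.611 to 0.996) without it, from 153 and 123 counts, so their direction rested on that gene. The blocks were read off the annotation after the values were known, so this is a description of where the values fell.

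**Figure D5:**
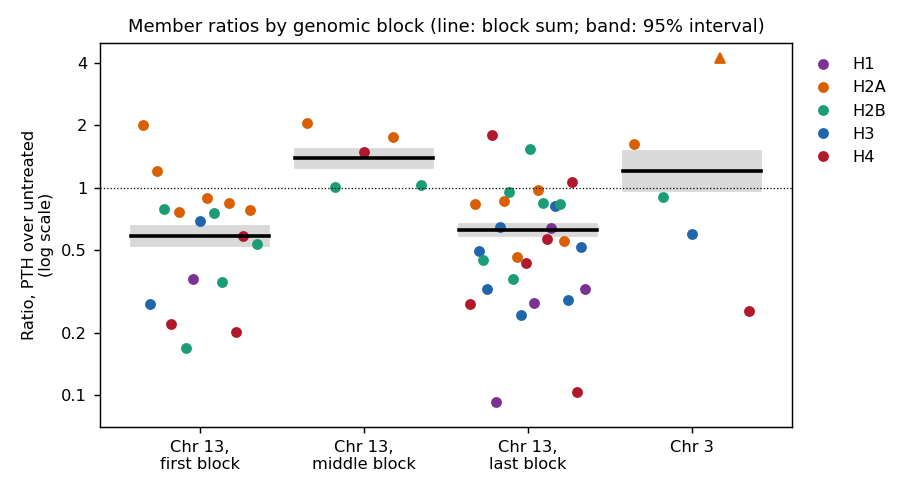
Ratio (PTH over untreated, log axis) of each gene in genome order within 4 blocks, coloured by class, with the ratio of the block sum as a line and its 95% counting interval as a band; the triangle is H2ac18, listed at 0 untreated. The middle block of chromosome 13 has 3 genes above 1 and its 2 H2B genes close to 1, on either side of it by scaling, with a block ratio of 1.39, while the blocks on either side are at 0.585 and 0.628.

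The promoter of the H2ac11 and H2bc11 pair, inside that middle block, is shown first because H2ac11 had the most counts of the H2A genes and an interval above 1. It lies at chr13:22042900-22043199 (GRCm38.p6, minus strand, RefSeq). The promoter of H2bc15, the lowest H2B gene, is shown for contrast and lies at chr13:21753826-21754125 (plus strand). Both run from 250 bases before to 50 after the annotated start of the named gene, and capitals mark, on either strand, the 4 motifs spelled out after the sequences.
H2ac11: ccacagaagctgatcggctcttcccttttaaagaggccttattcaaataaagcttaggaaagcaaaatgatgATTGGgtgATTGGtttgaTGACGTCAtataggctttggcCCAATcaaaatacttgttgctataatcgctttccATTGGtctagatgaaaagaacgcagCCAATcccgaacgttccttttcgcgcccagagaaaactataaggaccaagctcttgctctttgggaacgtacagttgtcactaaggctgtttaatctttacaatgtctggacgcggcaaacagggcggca
H2bc15: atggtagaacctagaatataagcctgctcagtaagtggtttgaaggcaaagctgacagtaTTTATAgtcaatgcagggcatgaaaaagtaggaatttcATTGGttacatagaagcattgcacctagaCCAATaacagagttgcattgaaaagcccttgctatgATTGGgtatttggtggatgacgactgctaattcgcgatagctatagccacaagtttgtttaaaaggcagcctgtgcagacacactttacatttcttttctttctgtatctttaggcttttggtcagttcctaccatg
Promoter sequences matched 41 of the 55 genes by symbol. CCAAT, a binding motif of NF-Y, was in 87.8% of the 41 and in 37.4% of 32544 promoters of that length. It was in all 33 promoters of H1, H2A, H2B and H3 genes and in 3 of 8 of H4 genes. TATAAA was in 63.4% against 13.6%. The octamer ATTTGCAT, bound by OCT factors, was in 9 of 41 (22.0% against 1.75%), all of H2A or H2B genes. TGACGTCA, the full palindrome of the cyclic AMP response element, was in 4 of 41 (9.76% against 1.80%). Its holders were H2ac11 and H2bc11, which share 1 copy, and H4c8 and H4c1, so it stood in promoters of genes on both sides of 1. A match is a description of the letters and shows no binding.

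A histone gene whose annotated transcript ends after a poly(A) signal may also give a tailed message. Models of 11 genes ended 10 to 40 bases after the start of AATAAA or ATTAAA, among them H1f2, H4c9, H2ac8 and H2bc21, a gene of the chromosome 3 cluster. Their summed ratio was 0.789 (0.728 to 0.856), and that of the other 44 genes 0.742 (0.699 to 0.787), with overlapping intervals. The 44 include models that run far past the stem-loop, such as H1f3 by 4884 bases and H2ac6 by 2010. The split therefore does not separate tailed from untailed models. Called lower were 4 of the 11 and 11 of the 44. The annotation may lack tailed forms of other genes, and which form the reads came from is not known.

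Levels per length, in CPM per kb of exonic length, were low throughout, with a median of 1.14 untreated and 0.600 after PTH. Untreated, H3c3 was the highest at 7.09 CPM per kb, followed by H1f2 at 5.99 and H4c9 at 5.02. After PTH H4c9 stood first at 7.44, followed by H3c3 at 5.76 and H2ac11 at 5.61. The order of the top genes thus differed between the libraries. The lengths depend on the model, since H1f3 is annotated at 7425 bases and H4c12 at 312.

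A list drawn up for variant and replication-independent histone genes, many of them spliced or tailed and expressed through the cell cycle, was together far more abundant. Whether each listed gene, H2aw among them, is independent of replication was not checked. Ratios ran from 0.782 to 1.18. Not every gene of the list was abundant, as H2aw, with the lowest ratio, had 2.68 CPM untreated and 2.10 after PTH. Of 12 compared, 0 were called in either direction, with 2142 CPM untreated, 2216 after PTH and a summed ratio of 1.03 (1.03 to 1.04). H3f3b, which encodes the replacement histone H3.3, had 48110 and 49202 counts, a ratio of 0.993 (0.981 to 1.01). H2az1, which encodes the variant H2A.Z, was at 1.12 (1.10 to 1.14), and H1f0, a linker histone gene of resting and differentiating cells, at 0.894 (0.878 to 0.910). The median log2 ratio of these genes was 0.06. The H2A genes of the list were divided. H2az1, H2az2, H2aj and H2ax were at 1.05 to 1.18, and Macroh2a1 at 1.03 (0.991 to 1.07). Macroh2a2 was at 0.866 (0.733 to 1.02) and H2aw at 0.782 (0.624 to 0.979). The replication-dependent H2A class was at 1.19, and at 1.09 without H2ac18. The 12 compared include no H2B or H4 gene.

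Among 21 genes for histone gene transcription and mRNA 3' end formation, 1 was called lower and 0 higher, with a median log2 ratio of -0.04. The one called was Lsm11, a subunit of the U7 particle that directs cleavage of histone messages, at 1115 and 693 counts, 1.66-fold lower (1.51 to 1.82). With the widened interval it was no longer called. The lowest ratio was that of Mblac1, 0.493 (0.316 to 0.755), from 67 and 34 counts, which was not called. Lsm10, the partner of Lsm11 in that particle, was at 0.852 (0.728 to 0.998), Slbp at 1.02 (0.990 to 1.06), Npat, the histone gene coactivator, at 0.988 (0.941 to 1.04), and Casp8ap2, which encodes FLASH, at 0.928 (0.893 to 0.964). These 4 were picked for their roles after their values were seen. The most abundant members, Srrt, Ncbp1 and Upf1, which act in RNA cap binding and decay, were at 1.17, 0.985 and 0.996.

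Of 27 genes of DNA replication and S phase 0 were called, with ratios from 0.666 to 1.15, the median log2 ratio was -0.02 and the summed ratio was 0.995. Rrm1, a ribonucleotide reductase subunit, was at 0.997 (0.980 to 1.01), Pcna, the polymerase clamp, at 1.15 (1.13 to 1.17), and Mcm6, a helicase subunit, at 0.966 (0.949 to 0.983). The lowest, named after their values were seen, were Ung, a uracil-DNA glycosylase gene, at 0.666 (0.619 to 0.716) and Ccne1, the cyclin E1 gene, at 0.670 (0.622 to 0.721). Of 21 histone chaperone and importer genes 0 were called, with a median of -0.02 and ratios from 0.819 to 1.11, including Nap1l1 at 1.11, Hjurp at 0.906 and Rbbp7 at 1.01. Of 16 genes of G2 and mitosis 0 were called, with a median of -0.15, ratios from 0.706 to 1.05 and a summed ratio of 0.928 (0.921 to 0.934). Among them Top2a, a topoisomerase, was at 1.02, Mki67, a proliferation marker, at 0.843 and Kif11, a spindle motor, at 0.949.

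Of the 11 symbols below the minimum, 6 were listed at 0 in both libraries (H2bc18, H2ac19, H2ac1, Hist1h2al, H2ac21 and H3c13). The 5 others had between 1 and 17 counts in total. A listed 0 is not a sure absence here, because 598 rows of the table were at 0 in a single library while the other held 10 to 29 counts.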

How the data were processed

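The values are whole-number gene counts as the authors deposited them, not normalised, with 1 column for each of the 2 libraries. HISAT2 and the build mm10 are named in the submitters' processing notes. Which counting tool and annotation were used, whether strand was read and how reads with several matches were treated is not given, nor is how RNA was selected for the libraries. The 16408 rows whose counts came to 20 or more were scaled with TMM effective sizes from edgeR 4.0.16 in R 4.3.3. With 1 library per group no test could be fitted. Ratios have 95% Clopper-Pearson intervals (Python 3.11.15, scipy 1.17.1, numpy 2.4.6, pandas 2.3.3), which take reads as independent, so PCR copies would widen them. For log2 ratios 0.5 count was added. Positions, types, lengths and transcripts came from GENCODE M21, which holds 55227 of the 55487 row identifiers. Shared sequence was the share of a gene's 50-base stretches found, on either strand, in a transcript of another gene. Divergent pairs had facing starts under 1000 bases apart. Members, lists and groupings were chosen with earlier results of these data known. Named members were those called with 10 or more counts in both libraries, those at 0 in 1 library, in each class the 3 with most counts and the highest and lowest ratio among those with 10 or more counts in both, and those just at or below the minimum. Named list genes were the 3 with most counts and up to 4 called. Others in the text were picked after their values were seen. Alternatives covered scaling (DESeq2 1.42.0 size factors, upper quartile, total counts), filters, the fold limit, the interval and shared sequence.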

Additional observations from a re-analysis of the deposited data

How the results depend on the processing

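No paired analysis was possible because each group held 1 library, and for the same reason no library could be left out. The 3 other scalings kept every class and named-gene value within its counting interval, with H2bc12 and H2bc11 moving across 1, and both counts of called genes within 1.5 times. Of the 1 gene called higher, 0 remained with a total of 100 or more, with 10 or more counts in each library, without members sharing 20% or more of exonic length, or with under 50% of 50-base stretches shared. With a limit of 5/4 in place of 1.5-fold 4 were called higher, and with an interval on either side of 1, 5. Of the 15 called lower, the count was 3 with a total of 100 or more, where 19 genes are left, 7 beyond 2-fold, 9 with the widened interval, 9 with under 50% of stretches shared (26 genes left) and 28 with an interval on either side of 1. The summed ratio of 0.758 was 0.831 with a total of 100 or more, 0.681 without members sharing exonic length, and 0.718 with under 50% of stretches shared, a choice made after seeing the data. Leaving out members that share exonic length takes away 13 of the 15 H2A genes, which summed to 1.27 (1.13 to 1.43). Except for H2ac18, the rows that these H2A genes overlap were listed at 0 in both libraries. The ratio of 0.681 is thus mostly one of the other classes. With a total of 100 or more the class ratios were 0.640 for H1 (1 gene), 0.886 for H2B and 1.10 for H4, which reversed its direction because H4c9 then makes up most of it. With under 50% of stretches shared H2A reversed to 0.879, on 2 genes, and H3 was at 0.653. Without the gene with most counts in each class, H1, H3 and H4 were at 0.251, 0.435 and 0.496. Low counts limit single genes, with a median total of 70. The rule itself, which needs the whole interval beyond 1.5-fold, also leaves ratios near that limit uncalled with more counts. An example is H1f2, at 0.638 with 1039 counts in total.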
